A study of Mus musculus with 3 samples.

Results

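The 10 genes described here mark T and B lymphocytes: Cd3d, Cd3e, Cd3g, Cd2, Cd4, Cd27 and Satb1 for T cells and Cd79a, Cd79b and Ms4a1 for B cells. They were taken by gene symbol from the annotation of an Illumina mouse BeadChip, on which all 10 have a probe. They make up 10 of 16593 named genes and 13 of 25697 probes. They were chosen by their intensities on these arrays in all 3 comparisons, so their differences are given as a description and none was tested. The RNA was that of 4T1 cells, a mouse mammary carcinoma line, labelled with GFP and grown as tumours in the mammary pads of female Balb/C mice aged 10 to 12 weeks. By label, CCC holds 4T1 cells purified from the systemic circulation, MCC holds 4T1 cells from metastatic loci in the lung, and PCC holds 4T1 cells purified from the primary breast tumour. Cells were isolated by flow cytometry, and the number of mice pooled for each array is not stated in the labels. Each label has 1 array, so there is no spread between replicates and no p-value between labels. The sort was for a carcinoma line, whereas the genes described here belong to lymphocytes.

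T cells recognise antigen through the T cell receptor, whose variable chains have no signalling tail of their own. They sit in a complex with the CD3 chains, which carry the signal into the cell and are found on T cells. B cells do the same with surface immunoglobulin, whose signalling partners are CD79A and CD79B. The CD3 and CD79 chains share a tyrosine motif that is phosphorylated when the receptor is engaged. Carcinoma cells are not known to make these receptor complexes.

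RefSeq promoter windows (build GRCm38.p6, C57BL/6J reference, 250 bases before to 50 bases after a transcript start) matched 6 of the 10 genes, Cd3d, Cd3e, Cd3g, Cd27, Cd79a and Satb1. Those of Cd2, Cd4, Cd79b and Ms4a1 are not shown. The windows of the neighbouring CD3 genes and of Cd79a are printed because these genes encode the signalling chains of the T and B cell receptors and were higher together on the same arrays. Capitals mark AGGAAG, a core of sites for ETS transcription factors, and CAGGTG, an E-box, on either strand (CTTCCT and CACCTG are the same letters on the opposite strand).
Cd3g (chr9:44980382-44980681, - strand): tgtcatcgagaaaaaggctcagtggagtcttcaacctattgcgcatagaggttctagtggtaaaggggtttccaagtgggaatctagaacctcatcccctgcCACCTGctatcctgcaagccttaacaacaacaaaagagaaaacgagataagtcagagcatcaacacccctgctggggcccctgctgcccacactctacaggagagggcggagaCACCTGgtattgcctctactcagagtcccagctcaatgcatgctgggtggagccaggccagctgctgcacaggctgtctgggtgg
Cd3d (chr9:44981536-44981835, + strand): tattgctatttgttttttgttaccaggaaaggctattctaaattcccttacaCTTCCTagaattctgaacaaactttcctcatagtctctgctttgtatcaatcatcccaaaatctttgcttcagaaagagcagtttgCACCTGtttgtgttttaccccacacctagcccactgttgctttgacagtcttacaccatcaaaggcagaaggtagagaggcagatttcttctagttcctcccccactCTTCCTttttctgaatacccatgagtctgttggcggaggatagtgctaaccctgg
Cd3e (chr9:45009562-45009861, - strand): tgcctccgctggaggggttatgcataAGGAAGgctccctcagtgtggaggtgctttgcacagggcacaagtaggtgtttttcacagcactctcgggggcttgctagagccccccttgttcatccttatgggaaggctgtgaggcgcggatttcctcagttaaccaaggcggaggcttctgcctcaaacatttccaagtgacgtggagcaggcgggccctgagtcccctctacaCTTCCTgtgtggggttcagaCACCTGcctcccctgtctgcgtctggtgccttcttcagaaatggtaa
Cd79a (chr7:24897247-24897546, + strand): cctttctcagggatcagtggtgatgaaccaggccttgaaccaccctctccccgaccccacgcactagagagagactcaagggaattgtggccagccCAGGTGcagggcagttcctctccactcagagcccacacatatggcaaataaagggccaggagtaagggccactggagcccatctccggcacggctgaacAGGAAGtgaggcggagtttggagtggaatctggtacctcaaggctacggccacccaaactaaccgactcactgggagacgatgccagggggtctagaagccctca
Cd3g and Cd3d start 1355 bases apart and are read in opposite directions, and Cd3e starts 27825 bases from Cd3d. AGGAAG is present in 5 of the 10 windows of these genes (Satb1 has several) and in 35.4% of all 32851 windows. CAGGTG is present in 6 of the 10, against 20.2% of all windows. The longer ETS site CAGGAAGT, which contains AGGAAG, is present in 3, those of Cd79a and Cd3e and 1 of Satb1, against 3.33% of all windows. TATAAA is present in 0 of the 10 and in 13.6% of all windows. Only Satb1 has more than 1 window, and some of its windows overlap, so the 10 windows are not 10 separate promoters. The window of Cd27 holds neither AGGAAG nor CAGGTG. These counts are descriptions of letters, and no binding was measured.

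Probe intensities had background subtracted before deposit, and a deposited detection p-value under 0.01 was taken as detected. Of all probes, 44.6% were detected on CCC, 44.0% on MCC and 41.0% on PCC. Mean intensity was 462 on CCC, 232 on MCC and 410 on PCC, so log2 intensities were compared after normalization (neqc). The lowest log2 intensity of a detected probe was 5.54 on CCC, 5.60 on MCC and 5.88 on PCC. The epithelial keratins Krt8 and Krt18, which 4T1 cells share with other carcinoma cells, were detected on all 3 arrays. Krt8 had a log2 intensity of 12.24 on CCC, 11.44 on MCC and 12.27 on PCC. Of 8 epithelial genes with a probe, 6 were at least 2-fold higher on MCC than on PCC and 0 lower. Over all genes, 18.0% were higher and 19.8% lower by that size. The 6 were Krt7, Krt18, Krt19, Cdh1, Cldn4 and Esrp1. The median was 3.53 over the 7 with a difference or bound. Of the 8, 4 were detected on MCC and not on PCC, so these could not be called lower. In CCC minus PCC, 0 epithelial genes passed 2-fold in either direction, where 6.34% of all genes were higher and 3.68% lower. Epcam has no probe matched here.

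The lymphocyte genes were detected in full on the array labelled MCC, in large part on CCC and in a smaller number on PCC. Of the 10 genes, 8 were detected on CCC, 10 on MCC and 5 on PCC. The 5 missing on PCC compare with 16.8% of all genes detected on MCC that were not detected on PCC. The 3 genes detected on CCC and not on PCC compare with 9.67% of all genes detected on CCC. Cd4 and Ms4a1 were not detected on CCC. Cd2, Cd4, Cd79a, Cd79b and Ms4a1 were not detected on PCC. Summed over the 10 genes, the deposited intensity was 5482 on CCC, 18478 on MCC and 602 on PCC. In bulk RNA, fewer cells of a type and less RNA per cell cannot be told apart.

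The CD3 chains were detected on every array. Cd3d, the delta chain, had deposited intensities of 943 on CCC, 2973 on MCC and 45.6 on PCC. Its PCC value was near the detection limit, with a detection p-value of 0.00501. Cd3e, the epsilon chain, which common T cell antibodies bind, had intensities of 562 on CCC, 1428 on MCC and 53.5 on PCC. Cd3g, the gamma chain, had 797 on CCC, 2026 on MCC and 369 on PCC. All 3 chains were highest on MCC and lowest on PCC, but the PCC signal of Cd3g lay far above its detection limit while those of Cd3d and Cd3e lay just above it. After normalization, Cd3g had log2 intensities of 9.34 on CCC, 11.79 on MCC and 8.50 on PCC. No second probe for any CD3 chain was available to set beside this value.

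The other T cell genes had the same order of arrays wherever more than 1 array detected them. Cd2, an adhesion receptor of T and NK cells that binds CD48 in mice, had intensities of 222 on CCC, 806 on MCC and 4.18 on PCC, where it was not detected (detection p 0.278). Satb1, a chromatin organiser needed for T cell development, had 1300 on CCC, 4239 on MCC and 48.2 on PCC. Satb1 is also expressed outside lymphocytes, including in some carcinoma cells. Cd4, the co-receptor of helper T cells, which binds MHC class II, was dim. It had 7.89 on CCC (detection p 0.187), 69.5 on MCC and -8.78 on PCC (detection p 0.801), so MCC alone gave a measured level.

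Cd27, a TNF receptor family member on T cells and some B cells, has 3 probes, which differed in brightness. The brightest had 756 on CCC, 3209 on MCC and 68.3 on PCC. A second had 105 on CCC, 766 on MCC and 12.1 on PCC, and was not detected on PCC. The dimmest had 3.88 on CCC, 46.3 on MCC and 0.756 on PCC, and was detected on MCC alone. All 3 probes were highest on MCC. The difference of MCC from PCC ranged from a bound of at least 1.23-fold with the dimmest probe to 65.7-fold with the brightest, so the fold of this gene depends on the probe.

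The B cell receptor chains gave signal on CCC and MCC and were not detected on PCC. Cd79a, the alpha signalling chain, had 226 on CCC, 968 on MCC and 3.36 on PCC (detection p 0.305). Cd79b, the beta chain, had 631 on CCC, 2655 on MCC and 1.20 on PCC (detection p 0.368) by its brighter probe. Its second probe had 267 on CCC, 673 on MCC and -15.3 on PCC (detection p 0.951). Both Cd79b probes thus gave signal on CCC and MCC and none above background on PCC. Ms4a1, which encodes the B cell surface protein CD20, was dim, with 36.2 on CCC (detection p 0.0175), 105 on MCC and 18.0 on PCC (detection p 0.0714).

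**Figure D1:**
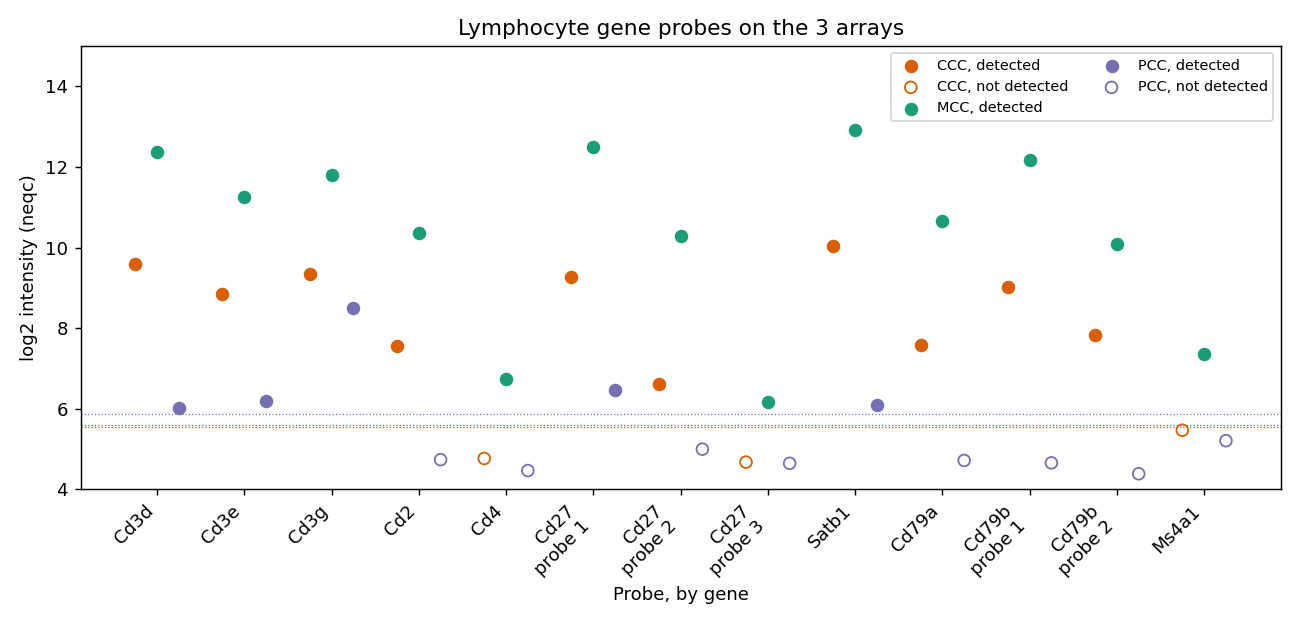
Normalized log2 intensity (vertical axis) of the 13 probes of the lymphocyte genes on the arrays labelled CCC, MCC and PCC, 1 array each. Filled circles are detected, open circles are not, and dotted lines mark each array's lowest detected value (5.54, 5.60 and 5.88). Every probe is highest on MCC, and 10 probes are detected on CCC, 13 on MCC and 5 on PCC.

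The comparison of MCC with PCC asks how cells taken from lung differ from those at the site of origin. All 10 genes were higher on MCC, 5 by a measured difference and 5 by a lower bound, since PCC did not detect them. By difference or bound, 9 of the 10 were at least 2-fold higher, where 18.0% of all genes detected on at least 1 of these arrays were, and 0 were at least 2-fold lower, where 19.8% of all genes were. The 5 genes with a bound could not be called lower. The median of the 10 was 4.93 on the log2 scale, against -0.09 over all genes. Satb1 was 113-fold higher, Cd3d 81.4-fold, Cd27 65.7-fold, Cd3e 33.5-fold and Cd3g 9.78-fold. Satb1 ranked 1, Cd3d 4, Cd27 7, Cd3e 19 and Cd3g 116 among 6829 genes detected on both arrays. Cd79b was at least 79.0-fold higher, Cd79a at least 27.7-fold and Cd2 at least 22.3-fold. Ms4a1 was at least 2.78-fold higher, just above the 2-fold size, and Cd4 at least 1.81-fold, just below it. Because Cd3d, Satb1, Cd3e and Cd27 were close to the detection limit on PCC, the sizes of their folds, and so their ranks, are uncertain.

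The comparison of CCC with PCC asks how cells in the blood differ from those in the tumour. Of the 8 genes detected on either array, all were higher on CCC, and 7 by at least 2-fold, where 6.34% of all genes were, and 0 were at least 2-fold lower, where 3.68% of all genes were. The 3 genes not detected on PCC could not be called lower. The median of the 8 was 2.74, against -0.08 over all genes. Satb1 was 15.5-fold higher, Cd3d 11.8-fold, Cd27 7.02-fold and Cd3e 6.33-fold. Cd79b was at least 8.81-fold higher, Cd79a at least 3.28-fold and Cd2 at least 3.23-fold. Cd3g was 1.80-fold higher, below the 2-fold size, and ranked 449 of 7286 genes detected on both arrays, where Satb1 ranked 1 and Cd3d 3. Without between-array normalization Cd3g was at 1.08 on the log2 scale, past the 2-fold size, and 8 of 8 genes passed. On CCC, 10 of 11 measured macrophage genes were also at least 2-fold higher than on PCC, where 6.34% of all genes were. Their median was 2.24 over the 11, by difference or bound. Their part in the result was not tested. Both comparisons use the same PCC array, so they are not independent.

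The comparison of CCC with MCC sets blood against lung. PCC entered through the normalization of all 3 arrays. For genes detected on all 3 arrays, the CCC minus MCC difference follows from the differences of both from PCC. This comparison is therefore not independent of the others. All 10 genes were lower on CCC, each by at least 2-fold as a difference or bound, where 18.2% of all genes were. The call for Cd4 was lost in 3 alternatives, with log2 bounds of -0.85 with no background correction, -0.81 with an offset of 50 and -0.63 with no between-array normalization, leaving 9 of 10. The median was -2.79, against -0.04 over all genes. Cd27 was 9.35-fold lower, Cd79b 8.97-fold, Cd79a 8.45-fold, Satb1 7.34-fold, Cd3d 6.92-fold, Cd2 6.90-fold, Cd3g 5.43-fold and Cd3e 5.29-fold lower. Ms4a1 was at least 3.52-fold and Cd4 at least 2.29-fold lower. CCC did not detect these 2 genes, so they could not be called higher. The 5 genes measured on all 3 arrays (Cd3d, Cd3e, Cd3g, Cd27 and Satb1) spanned 5.29-fold to 9.35-fold here, whereas in MCC minus PCC the same 5 spanned 9.78-fold to 113-fold.

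**Figure D2:**
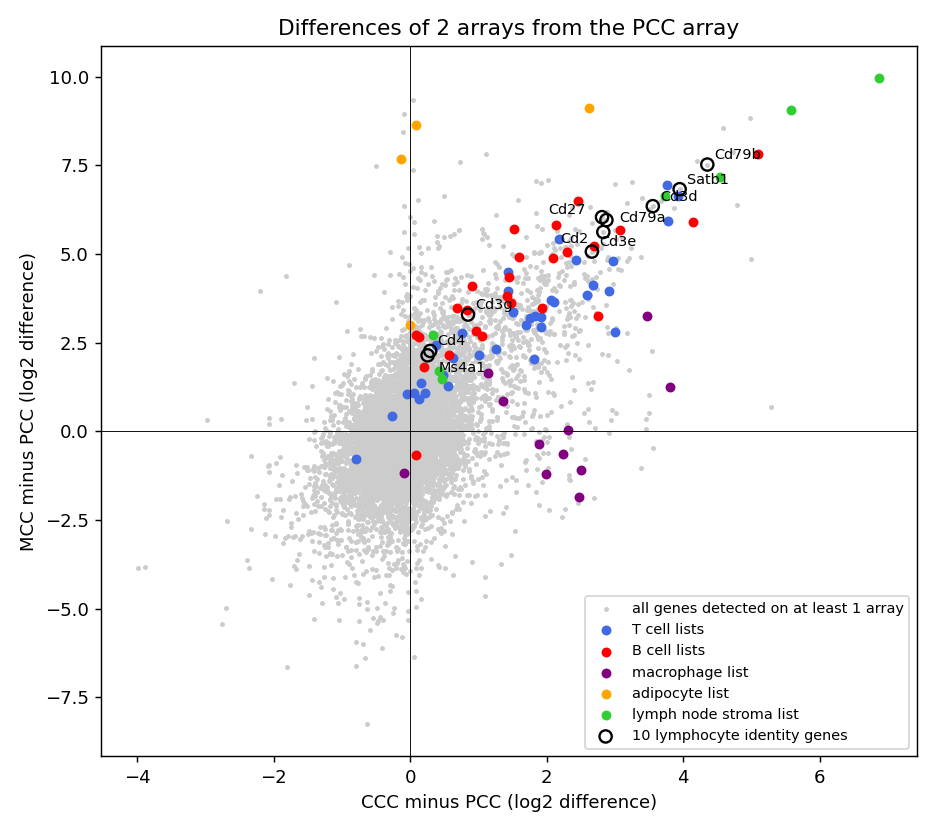
Log2 difference from PCC of the array labelled CCC (horizontal axis) and of MCC (vertical axis) for genes detected on at least 1 array, including values below detection on PCC. Circled genes are the 10 lymphocyte genes, and coloured points are other gene lists. Cd4 and Ms4a1 were detected on neither CCC nor PCC, so their horizontal positions are differences of background. The other 8 circled genes lie above 0 on both axes, with Satb1 at 3.95 and 6.83, while the macrophage gene Adgre1 lies at 2.48 and -1.87.

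With the neqc offset removed, the CCC signal of a gene can be written as a percentage of its MCC signal. For the 8 lymphocyte genes detected on both arrays it ran from 10.4% (Cd27) to 18.4% (Cd3e), with a median of 13.4%. The T cell genes Cd2, Cd3d and Satb1 were at 13.4%, 14.2% and 13.4%, and Cd3g was at 18.0%. The B cell genes Cd79a and Cd79b were at 11.0% and 10.8%. Other probes of the same genes fell outside that range, at 19.4% for the second Cd79b probe and 6.65% for the second Cd27 probe. All 7313 genes detected on both arrays had a median of 99.1%, with quartiles of 59.8% and 164%. On the deposited intensities, with no normalization, the same 8 genes ran from 23.3% (Cd79a) to 39.4% (Cd3e), and all genes had a median of 185%, with quartiles of 113% and 303%.

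**Figure D3:**
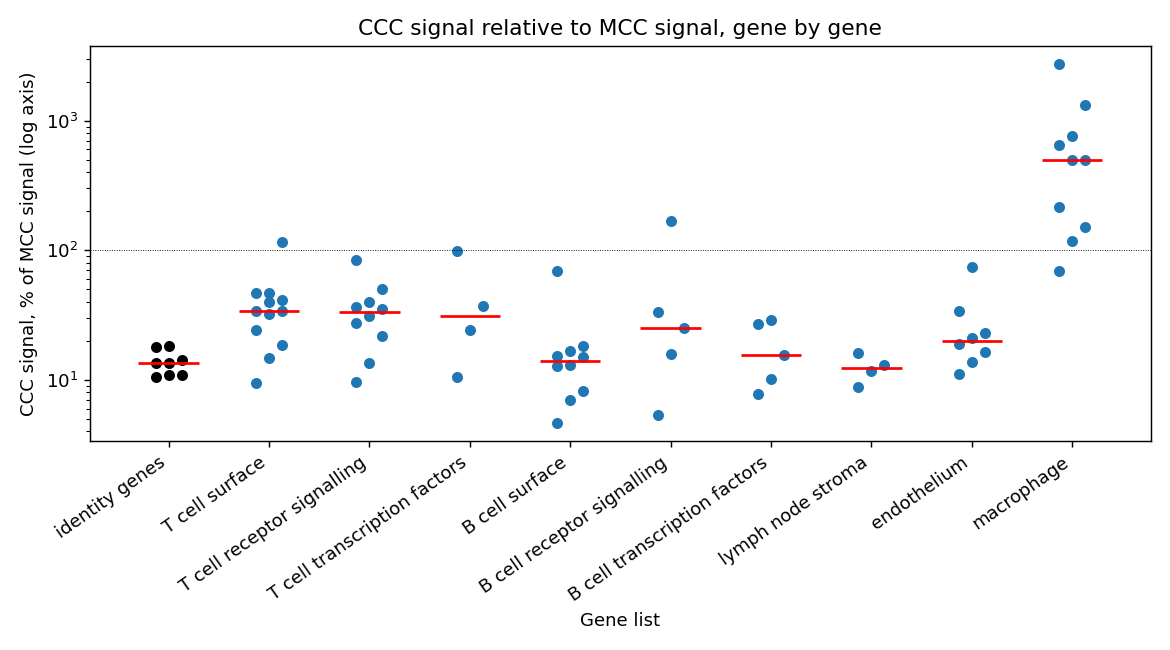
CCC signal as a percentage of MCC signal (vertical log axis) for genes detected on both arrays, by gene list. Points are genes, red lines are medians and the dotted line marks 100%. The 8 lymphocyte genes lie between 10.4% and 18.4%, B cell surface genes have a median of 14.0%, T cell surface genes 34.0% and macrophage genes 496%.

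Other genes of the T cell surface were also higher on MCC. Of 18 with a probe, 12 were detected on CCC, 16 on MCC and 2 on PCC. In MCC minus PCC, 12 reached 2-fold higher and 0 lower, where 18.0% and 19.8% of all genes did. Their median was 2.71 over the 14 that gave a difference or bound. A gene detected on MCC and not on PCC cannot be called lower, and 14 of the 16 were such genes. In CCC minus PCC, 8 of 12 reached 2-fold higher and 0 lower, where 6.34% and 3.68% of all genes did, and the median was 1.58. Of these 12, 10 were detected on CCC and not on PCC. Cd6, a T cell scavenger receptor family protein, was at least 47.1-fold higher on MCC and at least 7.18-fold higher on CCC than on PCC. Cd8b1, the beta chain of the CD8 co-receptor, was 28.5-fold higher on MCC than on PCC, whereas Cd8a, its partner chain, was not detected on any array. Il7r, the receptor that keeps resting T cells alive, was 14.3-fold higher on MCC than on PCC. Cd5, a brake on antigen receptor signalling, was at least 9.55-fold higher. Cd247, the zeta chain that completes the CD3 complex, was dim, at log2 intensities of 5.93 on CCC, 7.01 on MCC and 4.68 on PCC, where it was not detected. Slamf6 and Il2ra had the smallest bounds, 0.36 and 0.24.

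The CCC signal of the T cell surface genes had a median of 34.0% of the MCC signal over 12 genes, from 9.46% to 115%. Cd5 was at the low end and the inhibitory receptor Ctla4 at the high end, with log2 intensities of 8.75 on CCC, 8.55 on MCC and 5.75 on PCC, where it was not detected. The co-stimulatory receptors Icos and Cd28 were at 47.0% and 46.7%. Ctla4, Icos and Cd28 were singled out after their values were seen.

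Signalling molecules downstream of the T cell receptor followed the receptor chains in direction. Of 15 with a probe, 10 were detected on CCC, 13 on MCC and 4 on PCC. In MCC minus PCC, 8 reached 2-fold higher and 0 lower, where 18.0% and 19.8% of all genes did. The median was 3.18 over the 11 genes with a difference or bound. Of the 13, 9 were detected on MCC and not on PCC, so these could not be called lower. In CCC minus PCC, 6 of 10 reached 2-fold higher and 0 lower, where 6.34% and 3.68% of all genes did. Of these 10, 6 were detected on CCC and not on PCC, with the same limit. The kinase Zap70, which docks on phosphorylated CD3 chains, was at least 26.7-fold higher on MCC and at least 2.83-fold higher on CCC than on PCC. Its adaptor Lat was at least 27.0-fold and at least 6.14-fold higher. The exchange factor Rasgrp1 was detected on all 3 arrays, 28.1-fold higher on MCC and 7.83-fold higher on CCC than on PCC. Vav1, another exchange factor that other leukocytes also use, was 9.33-fold and 3.78-fold higher. Fyn and Grap2 had small bounds of MCC over PCC, 0.65 and 0.69 on the log2 scale.

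Transcription factors of T cells were mixed. Of 7 with a probe, 6 were detected on MCC, and 4 of these were at least 2-fold higher on MCC than on PCC and 0 lower. Over all genes, 18.0% were higher and 19.8% lower. PCC did not detect 4 of the 6, which therefore could not be called lower. In CCC minus PCC, 1 of 4 (Bcl11b) reached 2-fold higher and 0 lower, where 6.34% and 3.68% of all genes did. Of these 4, 2 were detected on CCC and not on PCC, with the same limit. Bcl11b, which fixes the T cell fate, was at least 48.6-fold higher on MCC and at least 5.34-fold higher on CCC than on PCC. Foxp3, the regulator of regulatory T cells, had log2 intensities of 6.73 on CCC, 8.01 on MCC and 5.03 on PCC, where it was not detected. Ets1 was bright on every array, at 10.86 on CCC, 12.88 on MCC and 10.11 on PCC. Gata3, which T helper cells share with mammary luminal epithelium, lay the other way, with 9.99 on CCC, 10.00 on MCC and 10.78 on PCC. Tbx21 was detected on MCC alone, with a bound of 0.15.

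Genes of the B cell surface gave signal on CCC and MCC but not on PCC. Of 13 with a probe, 10 were detected on CCC, 12 on MCC and 0 on PCC. All 12 were at least 2-fold higher on MCC than on PCC as a bound, where 18.0% of all genes were, with a median bound of 3.85. In CCC minus PCC, 6 of 10 reached 2-fold higher and 0 lower, where 6.34% and 3.68% of all genes did. With 0 detected on PCC, no gene of this list could be called lower than PCC. Fcmr, a receptor for IgM, was at least 96.4-fold higher on MCC and at least 14.7-fold higher on CCC than on PCC. Cd22, an inhibitory receptor of B cells, was at least 31.9-fold and at least 2.47-fold higher. Fcer2a, the low-affinity IgE receptor of mature B cells, was at least 30.8-fold and at least 1.69-fold higher. Cd40, which receives T cell help, was at least 29.1-fold and at least 5.08-fold higher. Cr2 and H2-Ob had the smallest bounds on MCC, 1.07 and 2.07.

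B cell receptor signalling and transcription factor genes were for the most part higher on MCC than on PCC. Of 6 signalling genes detected, 4 were at least 2-fold higher on MCC than on PCC and 0 lower. Over all genes, 18.0% were higher and 19.8% lower. Blk, a kinase of B cells, was at least 31.0-fold higher on MCC and at least 1.91-fold higher on CCC. Btk, which B cells share with myeloid cells, was detected on all arrays, with log2 intensities of 8.42 on CCC, 9.96 on MCC and 6.49 on PCC. Pik3cd, a lipid kinase of leukocytes, had 8.01 on CCC, 10.59 on MCC and 7.19 on PCC. Plcg2 and Syk did not reach 2-fold. Plcg2 had 10.92 on CCC, 10.17 on MCC and 10.83 on PCC, and Syk was detected on MCC alone, with a bound of 0.52 over PCC. Of 7 transcription factors detected, all were at least 2-fold higher on MCC than on PCC by difference or bound, with a median of 2.83. PCC did not detect 6 of these 7, nor 3 of the 6 signalling genes, so those could not be called lower. In CCC minus PCC, 1 of 5 signalling genes (Btk) and 1 of 5 transcription factors (Pou2af1) reached 2-fold higher and 0 lower. Of all genes, 6.34% were higher and 3.68% lower there. Here 2 of the signalling genes and 4 of the transcription factors were detected on CCC and not on PCC, with the same limit. Pou2af1, a B cell coactivator of octamer factors, was at least 30.3-fold higher on MCC and at least 9.03-fold higher on CCC. Bcl11a had log2 intensities of 5.88 on CCC, 8.79 on MCC and 4.43 on PCC. Ebf1, Spib and Irf8 were also higher on MCC, while Pax5, which commits cells to the B lineage, was not detected on any array.

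**Figure D4:**
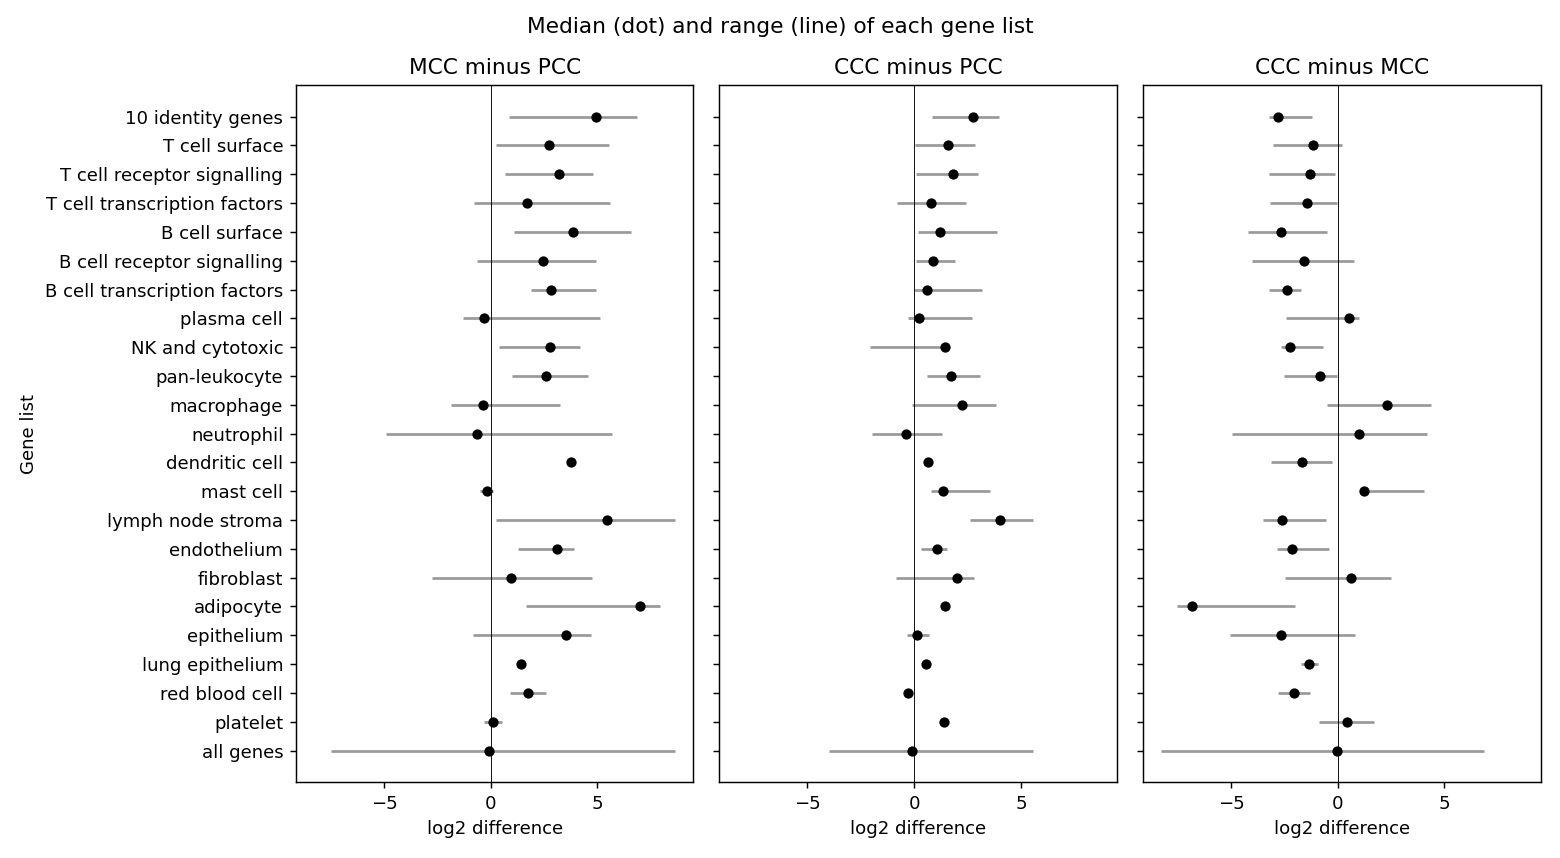
Median (dot) and range (line) of the log2 difference or bound of each gene list, for the pairs MCC minus PCC, CCC minus PCC and CCC minus MCC. The lymphocyte genes have medians of 4.93 over 10 genes, 2.74 over the 8 detected on CCC or PCC, and -2.79 over 10, and all genes have medians of -0.09, -0.08 and -0.04.

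Genes of other cell types were measured beside the lymphocyte genes. Of 11 NK and cytotoxic genes, 4 were detected on every array, and the NK receptor Ncr1 and the granzymes Gzma and Gzmb were detected on none. The T and NK cell chemokine Ccl5 had log2 intensities of 10.59 on CCC, 13.23 on MCC and 9.03 on PCC. Perforin (Prf1) had 9.01 on CCC, 11.45 on MCC and 11.08 on PCC. Nkg7 was 12.0-fold higher on MCC and 2.97-fold higher on CCC than on PCC, and Klrd1 3.97-fold and 2.43-fold. In MCC minus PCC, 3 of the 4 reached 2-fold higher and 0 lower, where 18.0% and 19.8% of all genes did, with a median of 2.79. In CCC minus PCC, 3 reached 2-fold higher and 1 (Prf1) lower, where 6.34% and 3.68% of all genes did, with a median of 1.42. Of 6 plasma cell genes, 3 were detected on any array, with a median of -0.32 in MCC minus PCC. Mzb1 had 8.58 on CCC, 11.01 on MCC and 4.71 on PCC, where it was not detected. Sdc1 was not detected on MCC and was at least 2.44-fold lower there than on PCC, and Xbp1 had 12.14 on CCC, 11.61 on MCC and 11.93 on PCC. Jchain was detected on no array. All 11 pan-leukocyte genes were at least 2-fold higher on MCC than on PCC, where 18.0% of all genes were, with a median of 2.58. In CCC minus PCC, 8 of the 11 reached 2-fold higher and 0 lower, where 6.34% and 3.68% of all genes did. The median there was 1.74, and all 11 lay above PCC, as did 3418 of 7952 genes. PCC did not detect 2 of the 11, which could not be called lower. Ptprc, which encodes CD45, was not detected on PCC and had log2 intensities of 6.48 on CCC and 7.25 on MCC. Their part in the lymphocyte result was not tested.

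Lymph node stroma genes followed the order of the lymphocyte genes, and macrophage genes did not. Of 7 lymph node stroma genes, 4 were detected on CCC, 7 on MCC and 0 on PCC, and their normalized signal summed to 5326 on CCC, 48098 on MCC and 79.7 on PCC. Glycam1, a ligand for the lymphocyte homing receptor on high endothelial venules that the mammary gland also makes, and the T cell chemokine Ccl21a had CCC signals of 11.8% and 8.77% of those on MCC. The median was 12.4% over 4 genes. The 11 macrophage genes had a median difference of 2.29 in CCC minus MCC, and their normalized signal summed to 24240 on CCC, 10366 on MCC and 4845 on PCC. In MCC minus PCC their median was -0.35, with 5 genes higher and 6 lower, so these sums do not give the direction of most of them. Over all genes, 4086 of 8608 were higher and 4520 lower by any amount. Lyz2, the brightest of them on MCC, had log2 intensities of 12.86 on MCC and 9.62 on PCC. Endothelial genes summed to 2836 on CCC, 13776 on MCC and 1217 on PCC. Adipocyte genes summed to 171 on CCC, 29612 on MCC and 38.4 on PCC. Of 4 such genes measured, 1 was detected on CCC, 4 on MCC and 0 on PCC, so the PCC sum is background. The 1 on CCC was lipoprotein lipase Lpl, at 0.998% of its MCC signal. Of 6 lung epithelial genes, Sftpc, Sftpb, Sftpa1 and Scgb1a1 were detected on no array. Ager was detected on MCC alone, at least 2.60-fold higher than on PCC, and Aqp5 was detected on all 3 arrays and was 2.77-fold higher on MCC than on PCC. The part of these cell types in the lymphocyte result was not tested, and label and array cannot be told apart with 1 array each.

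The genes whose pattern was nearest to the lymphocyte genes were found by their distance, in log2 units, from the median of the 8 genes detected on CCC and MCC, which was 6.0 for MCC minus PCC and 2.85 for CCC minus PCC. Those values include PCC signals below detection, and 7305 genes were ranked over 3 arrays. The 10 nearest, at distances of 0.087 to 0.551, were the cytokine receptor Il27ra, Serpina3n, St6galnac2, the proton channel Hvcn1, the B cell gene Fcrla, the lymphotoxin subunit Ltb, Timd4, Dpp4, Prelp and Il4i1. Of these 10, 9 were not detected on PCC, as were 3 of the 8 genes behind the median, so their differences from PCC are set against background and no order among them can be read. Il4i1 was the one detected on PCC, with log2 intensities of 9.25 on CCC, 12.52 on MCC and 6.07 on PCC. Il27ra had 8.35 on CCC and 11.50 on MCC. Fcrla belongs to the B cell surface list.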

How the data were processed

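The 3 arrays (CCC, MCC and PCC) were compared as labelled, with 1 array per group and no test. The probe intensities and detection p-values were deposited by the authors after GenomeStudio, as the submitters' processing notes name it, with no version. Of the deposited intensities, 24.0% to 28.3% per array were negative, which follows from background subtraction. The authors' second deposited table is a straight line of each array's intensities (slopes 0.865, 1.53 and 0.926 and column medians 32.0, 35.1 and 42.9 for CCC, MCC and PCC). It is linear and uncentred, and its between-array method is not stated. Symbols came from the platform annotation, updated through the gene ID (23962 of 23978 named probes matched, and 1719 probes are unnamed here).

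The neqc function of limma 3.58.1 (R 4.3.3, offset 16, background inferred from detection p-values, quantile normalization) gave log2 intensities. Each gene was represented by the detected probe of highest mean log2 intensity (p under 0.01), which left 9082 genes. A gene detected on 1 array of a comparison has a lower bound, taken against the higher of the other array's lowest detected value and the probe's own. Genes were counted at 2-fold, by difference or bound. The number of arrays limits precision. Counts, lists and figures used Python 3.11.15 (numpy 2.4.6, pandas 2.3.3, matplotlib 3.10.9), and the counting was tested on simulated data. The genes and lists were chosen with earlier results of these data known. Named are all 10 genes, up to 4 of each list with the highest MCC intensity, up to 2 with the lowest MCC minus PCC difference, a set of defining genes and the 10 nearest in pattern, and from lists of other cell types a selection of these. Others named were picked after their values were seen. The offset shrinks differences of dim genes. Alternatives covered background, offset, scaling, the authors' table, detection and the choice of probe.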

Additional observations from a re-analysis of the deposited data

How the results depend on the processing

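In every alternative run, 0 of the lymphocyte genes turned direction in any comparison. A gene with a bound could not turn, because a bound in the other direction is left out. With no filter on detection every gene had a difference, some of them against background. In that setting all 10 were higher on MCC and on CCC than on PCC, and lower on CCC than on MCC. A median that moved by at most 0.58 on the log2 scale (1.5-fold) and a count within 1.5 times its value are not listed, as no replicate spread exists to judge them by. That left 75 values that moved within these limits and 9 beyond them, given below. Of the values of single genes, 206 stayed within 1.5-fold and 33 did not, all in the same direction. Without between-array normalization the median of the 10 genes was 4.28 in MCC minus PCC (4.93 here) and -1.67 in CCC minus MCC (-2.79 here), as the median of all genes detected on both arrays was -0.75 and 0.83 (-0.16 and -0.01 here). That setting also moved the share of genes past 2-fold that were higher, to 24.9% in MCC minus PCC (47.6% here), 85.2% in CCC minus PCC (63.3% here) and 84.8% in CCC minus MCC (47.3% here). With no filter on detection, which replaces bounds by differences, the median in MCC minus PCC was 5.79. With genes detected on all 3 arrays, 5 of the 10 remain, and the counts at 2-fold were 5 in MCC minus PCC, 4 in CCC minus PCC and 5 in CCC minus MCC, with a median of 6.04 in MCC minus PCC and 551 of all genes past 2-fold in CCC minus PCC (828 here). With the mean of a gene's detected probes the median in CCC minus PCC was 2.13 (2.74 here), where Cd27 was at 1.49 and Cd79b at 2.54. Satb1 ranged from 6.06 to 6.83 and Cd3g from 2.41 to 3.29 in MCC minus PCC over all settings. Cd4 in MCC minus PCC ranged from 0.60 to 2.26, across the 2-fold size, and in CCC minus MCC from -1.97 to -0.63, also across it. Cd3g in CCC minus PCC ranged from 0.79 to 1.08, with the highest value, past 2-fold, without between-array normalization. At a detection p under 0.05, 9 of the 10 genes counted as detected on CCC, with Ms4a1 added. Signals near background limit the folds over PCC. No paired analysis was possible because each group has 1 array.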
